A study of Mus musculus with 6 samples.

Results

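TGF-β signaling in B16-F10 melanoma was followed through 10 genes that encode its ligands, receptors, activators and inhibitors (Tgfb1, Tgfb2, Tgfb3, Tgfbr1, Tgfbr2, Itgav, Itgb8, Ltbp1, Smad7 and Ski). They were chosen by gene name and all 10 were found among the 32285 genes of the deposited single-cell tables. B16-F10 is a mouse melanoma line that grows in C57BL/6 mice. Female mice of 6 to 10 weeks carried these tumors, and 10 mice per treatment arm were used. Both groups received αPD-1, a checkpoint-blocking antibody, at 150 μg per mouse 3 times per week from day 7. The αPD-1 + corin group also received corin, an inhibitor of the CoREST repressor complex, at 200 μg per mouse by daily intraperitoneal injection from day 6. A vehicle for corin is described, but the labels do not state that the αPD-1 group received it. Each group has 3 samples. Which of the mice each sample came from is not stated, so p-values measure only the spread between these samples. Minced tumors were digested, frozen, thawed, cleared of dead cells and enriched for CD45+ leukocytes on magnetic beads before 5′ single-cell RNA-seq. Shares of cells are therefore set partly by that enrichment. Melanoma cells and fibroblasts are those that remained after it and after the limits on genes per cell.

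TGF-β is made as a latent dimer that stays bound to its own propeptide, and latent TGF-β binding proteins such as LTBP1 tether it to the matrix. Integrins that pair the αV chain (Itgav) with β8 (Itgb8) release it, after which the ligand assembles TGFBR2 and TGFBR1 and SMAD proteins carry the signal to the nucleus. SMAD7 blocks the receptors and SKI represses SMAD target genes, so both restrain the pathway. In tumors TGF-β is known for suppressing effector T cells, sustaining regulatory T cells and activating fibroblasts.

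The libraries held 6433 to 7000 barcodes with αPD-1 and 9637 to 13228 with αPD-1 + corin, or 52281422 to 84276739 UMIs (unique molecular identifiers, 1 per captured RNA molecule). Pairs of libraries shared 10 to 32 cell barcodes. After filtering, 28865 of 52899 barcodes were kept and placed in 25 clusters, which were named from marker genes. The T cells numbered 602 to 797 per αPD-1 sample and 151, 287 and 1146 in αPD-1 + corin replicates 1, 2 and 3. Macrophages numbered 729 to 883 and 1176 to 4239, and neutrophils only 11 to 18 and 88 to 1083. The Foxp3+ T cells, which are T cells with at least 1 UMI of Foxp3, numbered 16 to 55 per sample. Levels are given as CPM, the UMIs of a gene per 1000000 UMIs summed over the cells of a lineage in a sample. Summed markers of neutrophils were higher in the other lineages of αPD-1 + corin: 10.7 to 18.5 against 57.6 to 341 CPM in T cells, 78.2 to 84.0 against 153 to 986 in macrophages, and 57.9 to 141 against 306 to 4160 in dendritic cells (DC). B cell markers in T cells went the other way, from 165 to 437 CPM down to 17.1 to 19.2 CPM. Macrophage markers in DC were at 3008 to 5201 CPM with αPD-1 and 3763 to 4971 CPM with αPD-1 + corin. Macrophages themselves had 9078 to 12019 and 10962 to 19140 CPM. The DC numbered 2767 in all, and 1443 when clustered at resolution 1.2. All markers in these lists were detected in those lineages, and their part in the results was not tested. Ptprc, which encodes CD45, was at 1497 ± 171 CPM in T cells, at 25.7 ± 17.4 CPM in melanoma cells and at 40.6 ± 16.0 CPM in fibroblasts (SD, n = 6).

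Clusters were made from the same cells, so levels between lineages are described without a test. The T cells include the Foxp3+ T cells. Every order of levels below is among the 8 lineages only, and smaller classes such as endothelial cells are not ranked in it.

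Tgfb1, the ligand made by most leukocytes, was highest in monocytes at 272 ± 37.0 CPM (SD, n = 6), and the lowest monocyte sample at 218 CPM was above the highest DC sample at 198 CPM. DC followed at 183 ± 7.65 CPM, then Foxp3+ T cells at 162 ± 61.2, macrophages at 157 ± 16.5, T cells at 146 ± 26.5, neutrophils at 140 ± 52.7 and fibroblasts at 84.8 ± 45.5. From DC to fibroblasts each neighbor in this order overlapped the next. Melanoma cells were lowest at 21.2 ± 2.76 CPM, and their highest sample at 24.0 CPM lay under the lowest fibroblast sample at 31.1 CPM. The Tgfb1 locus is on chromosome 7 (GRCm39, 25386390 to 25404506, + strand).

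Tgfb2 was nearly confined to fibroblasts and melanoma cells among these 8 lineages. In fibroblasts it measured 89.8, 246 and 59.9 CPM in αPD-1 replicates 1, 2 and 3 and 52.7, 15.8 and 34.5 CPM with αPD-1 + corin. In melanoma cells it measured 6.32, 5.32 and 14.0 CPM and 15.4, 18.2 and 13.2 CPM. The groups did not overlap in fibroblasts and did overlap in melanoma cells. Over both groups the macrophages held 14 Tgfb2 UMIs, the DC 6, the T cells 4, the neutrophils 1, and the monocytes and Foxp3+ T cells none. In the Foxp3+ T cells, where the sums are small, a count of 0 allows up to 11.6 to 75.0 CPM per sample (3 UMIs, counting error only).

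Tgfb3 was highest in fibroblasts among the 8 lineages. It measured 27.5, 52.4 and 99.8 CPM there with αPD-1 and 42.7, 20.5 and 22.4 CPM with αPD-1 + corin. The groups overlapped. Endothelial cells, which are not among the 8, had 62.4 ± 59.9 CPM of Tgfb3, with samples from 0 to 164 CPM. They had 53.6 ± 15.9 CPM of Tgfb2 (SD, n = 6). All 6 fibroblast samples were above the highest macrophage sample at 8.09 CPM. Macrophages had 5.93 ± 1.53, melanoma cells 4.27 ± 1.71 and DC 3.07 ± 1.86 CPM (SD, n = 6), and these neighbors overlapped.

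Ltbp1, which encodes the matrix tether of the latent ligand, was a fibroblast gene in these samples. It measured 49.5, 41.9 and 42.8 CPM with αPD-1 and 66.6, 67.9 and 142 CPM with αPD-1 + corin. All αPD-1 + corin samples lay above all αPD-1 samples, with replicate 3 far above the other two. Melanoma cells had 3.28 ± 1.60 CPM (SD, n = 6), with no overlap with fibroblasts.

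Itgav, the αV chain, was highest in Foxp3+ T cells at 503 ± 223 CPM, followed by T cells at 255 ± 90.8, macrophages at 165 ± 25.9, neutrophils at 144 ± 47.1, fibroblasts at 142 ± 30.4, melanoma cells at 134 ± 30.2, monocytes at 104 ± 11.3 and DC at 90.2 ± 11.6 CPM (SD, n = 6). Every neighbor in this order overlapped the next. The gene lies on chromosome 2 (GRCm39, 83554403 to 83637260, + strand).

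Itgb8, its β8 partner, was also highest in Foxp3+ T cells, at 74.9, 69.4 and 96.5 CPM in the αPD-1 samples and 150, 101 and 31.9 CPM in the αPD-1 + corin samples. These values rest on 45 and 35 UMIs, and replicates 1 and 3 of αPD-1 + corin had only 6 and 3. T cells without a Foxp3 UMI had 9.50, 5.29 and 7.11 CPM against 6.17, 24.9 and 3.41 CPM, below the Foxp3+ T cells of the same sample in all 6 samples. In the other lineages Itgb8 averaged 0.659 CPM in fibroblasts to 4.56 CPM in neutrophils. The neutrophil value came mainly from 1 UMI in αPD-1 replicate 3 and 33 UMIs in αPD-1 + corin replicate 2.

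Tgfbr1, the signaling type I receptor, had no lineage among the 8 that stood apart from its neighbors. Plasmacytoid DC, which are not among the 8, had more, at 162 ± 39.9 CPM with samples from 126 to 222 CPM (SD, n = 6). Among the 8, the means of Tgfbr1 ran from 77.5 ± 36.4 CPM in macrophages through 69.6 ± 26.6 in fibroblasts, 60.7 ± 24.1 in melanoma cells and 58.6 ± 12.8 in monocytes to 35.4 ± 13.8 in T cells (SD, n = 6). All neighbors in the order overlapped.

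Tgfbr2, the ligand-binding type II receptor, was highest in fibroblasts at 260 ± 74.7 CPM and in T cells at 163 ± 44.2 CPM, which overlapped. Neutrophils had 109 ± 59.9, macrophages 105 ± 12.0, Foxp3+ T cells 79.2 ± 25.8, DC 65.5 ± 7.60 and monocytes 53.9 ± 5.85 CPM. Melanoma cells were lowest at 34.1 ± 8.03 CPM and did not overlap monocytes (SD, n = 6). The gene lies on chromosome 9 (GRCm39, 115913361 to 116004800, - strand).

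Smad7, the inhibitor of the receptors, was highest in Foxp3+ T cells at 209 ± 64.4 CPM and T cells at 199 ± 32.0 CPM, which overlapped. Fibroblasts followed at 121 ± 52.7 CPM. Macrophages had 50.2 ± 12.1 and monocytes 42.5 ± 4.504 CPM, and melanoma cells were lowest at 25.1 ± 4.73 CPM with no overlap with monocytes (SD, n = 6).

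Ski, the repressor of SMAD targets, was highest in fibroblasts at 114 ± 33.1 CPM, then in macrophages at 85.2 ± 11.5 and T cells at 81.4 ± 21.7, and lowest in monocytes at 36.9 ± 7.96 CPM (SD, n = 6). Every neighbor in its order overlapped the next.

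**Figure D1:**
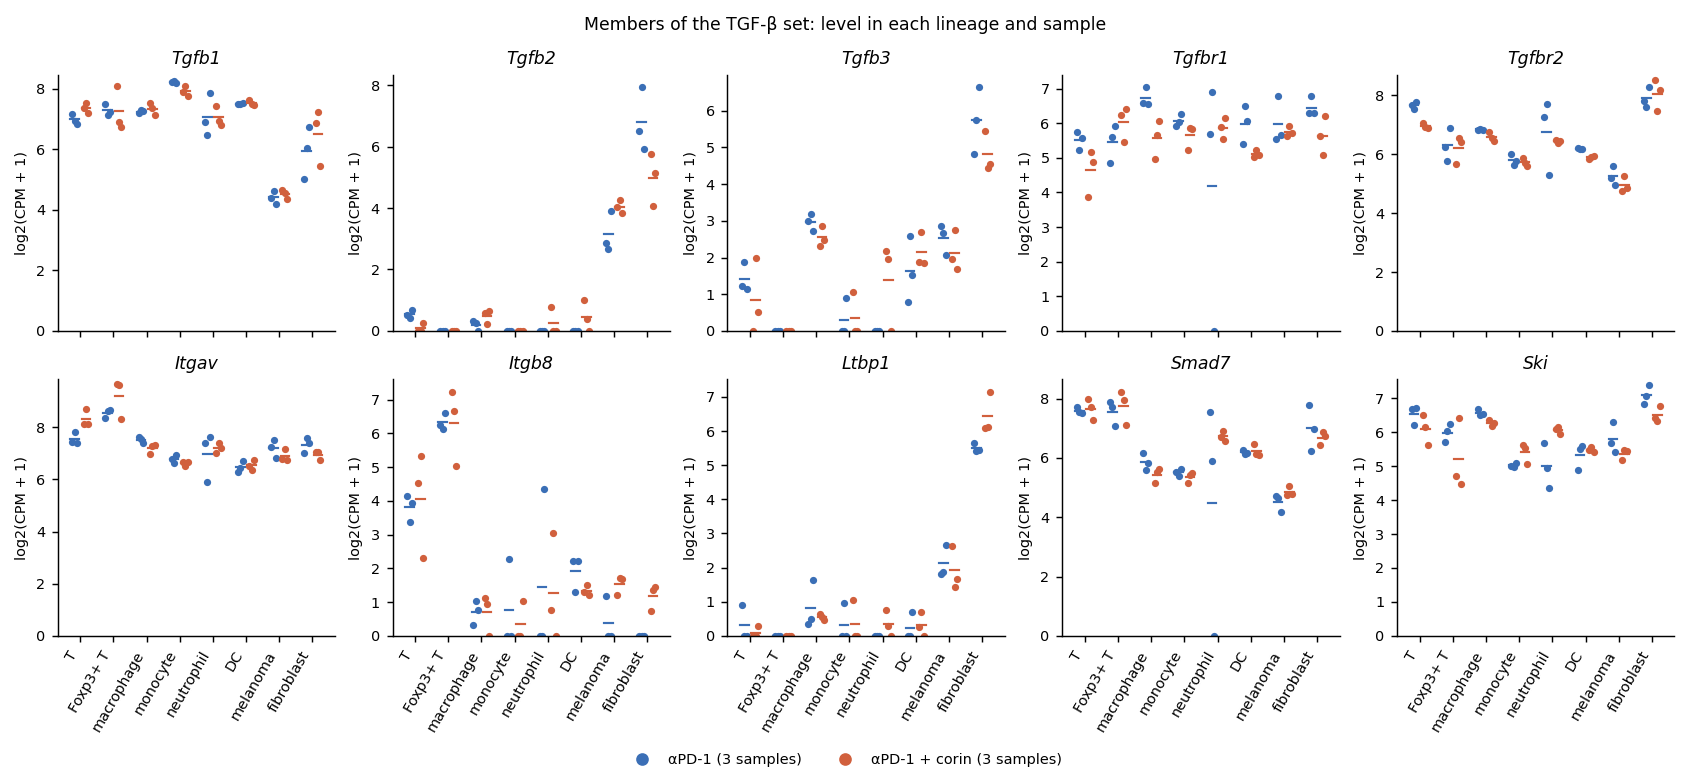
Level of each of the 10 genes as log2(CPM + 1) in 8 lineages, with 1 point per sample colored by treatment and a bar at the mean. Tgfb2, Tgfb3 and Ltbp1 stand out in fibroblasts, Itgb8 and Itgav in Foxp3+ T cells, and Tgfb1 is lowest in melanoma cells at 21.2 CPM.

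Corin added to αPD-1 was tested next, lineage by lineage, for a change in these genes. In T cells, 3 of the 7 members that could be tested passed: Itgav and Tgfb1 rose and Tgfbr2 fell. For comparison, 18.8% of all 9961 genes tested in T cells passed, and 0.365% of 9048 genes without the Tn-like cells described below. In the other 7 lineages no member passed, where 1.08% of genes passed in Foxp3+ T cells, 0.0695% in macrophages, 1.96% in monocytes, 0.445% in neutrophils, 0.734% in DC, 0% in melanoma cells and 3.06% in fibroblasts. In all, 54 pairs of a member and a lineage had enough UMIs to be tested. Each test was edgeR's quasi-likelihood test on summed UMIs with Benjamini-Hochberg adjustment over all genes of the lineage, passed at an adjusted p below 0.05. The αPD-1 + corin libraries did not behave alike: without αPD-1 + corin replicate 3 the genes that passed went from 8 to 2579 in macrophages, from 148 to 610 in monocytes, from 72 to 894 in DC and from 211 to 1026 in fibroblasts, and members that passed then are named below. Among the members, an unadjusted edgeR p below 0.05 was found for 5 of 9 in fibroblasts and for 0 in neutrophils and melanoma cells. It was found for 1 of 7 in macrophages and 1 of 6 each in Foxp3+ T cells, monocytes and DC. Over all genes tested it was found for 1610 of 6895 in fibroblasts, 297 of 3067 in Foxp3+ T cells and 1983 of 11509 in macrophages. The counts were 1271 of 7551 in monocytes, 1414 of 9804 in DC, 324 of 2923 in neutrophils and 694 of 9467 in melanoma cells. DESeq2 called 1 member in macrophages, where it called 217 of 11509 genes, and 1 in fibroblasts, where it called 270 of 6895. In melanoma cells it called 7 of 9467 genes and no member.

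Itgav in T cells measured 171, 225 and 168 CPM in αPD-1 replicates 1, 2 and 3 and 277, 412 and 277 CPM with αPD-1 + corin. All αPD-1 + corin samples were above all αPD-1 samples. The log2 fold change, which uses library sizes scaled by TMM rather than CPM, was 0.82 (SE 0.17, adjusted p = 0.00258).

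Tgfb1 in T cells measured 143, 123 and 115 CPM with αPD-1 and 165, 186 and 147 CPM with αPD-1 + corin. The groups did not overlap, but the highest αPD-1 sample lay close under the lowest αPD-1 + corin sample. The log2 fold change was 0.42 (SE 0.13, adjusted p = 0.0299), and the call was made in only 10 of 18 alternatives, and was lost when αPD-1 replicate 2, αPD-1 replicate 3 or αPD-1 + corin replicate 2 was left out (adjusted p = 0.0656, 0.117 and 0.103).

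Tgfbr2 in T cells measured 203, 185 and 217 CPM with αPD-1 and 132, 121 and 118 CPM with αPD-1 + corin. The groups were far apart relative to their spread, at 202 ± 16.1 against 124 ± 7.26 CPM (SD, n = 3 each). The log2 fold change was -0.67 (SE 0.13, adjusted p = 0.000801).

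Tgfbr1 in T cells was just outside the threshold, at 52.8, 36.4 and 46.4 CPM against 13.7, 35.0 and 28.2 CPM (log2 fold change -0.59, SE 0.21, adjusted p = 0.0521). Ski in T cells, at 102, 72.5 and 105 CPM against 90.7, 70.1 and 48.2 CPM, had a log2 fold change of -0.52 (SE 0.19, adjusted p = 0.0689). Both passed in some alternatives. Leaving out αPD-1 replicate 2 gave an adjusted p of 0.0314 for Tgfbr1 and 0.0209 for Ski, which also passed when αPD-1 + corin replicate 1 was left out (0.0236). Leaving out the Tn-like cells described below took the log2 fold change to -0.08 (SE 0.21, adjusted p = 0.985) for Tgfbr1 and to -0.11 (SE 0.18, adjusted p = 0.924) for Ski.

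Itgb8 in T cells varied most in αPD-1 + corin, at 22.0, 39.5 and 3.97 CPM against 16.9, 9.27 and 14.3 CPM with αPD-1. Its log2 fold change was 0.43 (SE 1.00, adjusted p = 0.824) and became 1.41 (SE 0.31, adjusted p = 0.00269) without αPD-1 + corin replicate 3. Smad7 in T cells measured 208, 185 and 184 CPM against 250, 211 and 156 CPM, with overlapping groups and a log2 fold change of 0.08 (SE 0.14, adjusted p = 0.747).

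**Figure D2:**
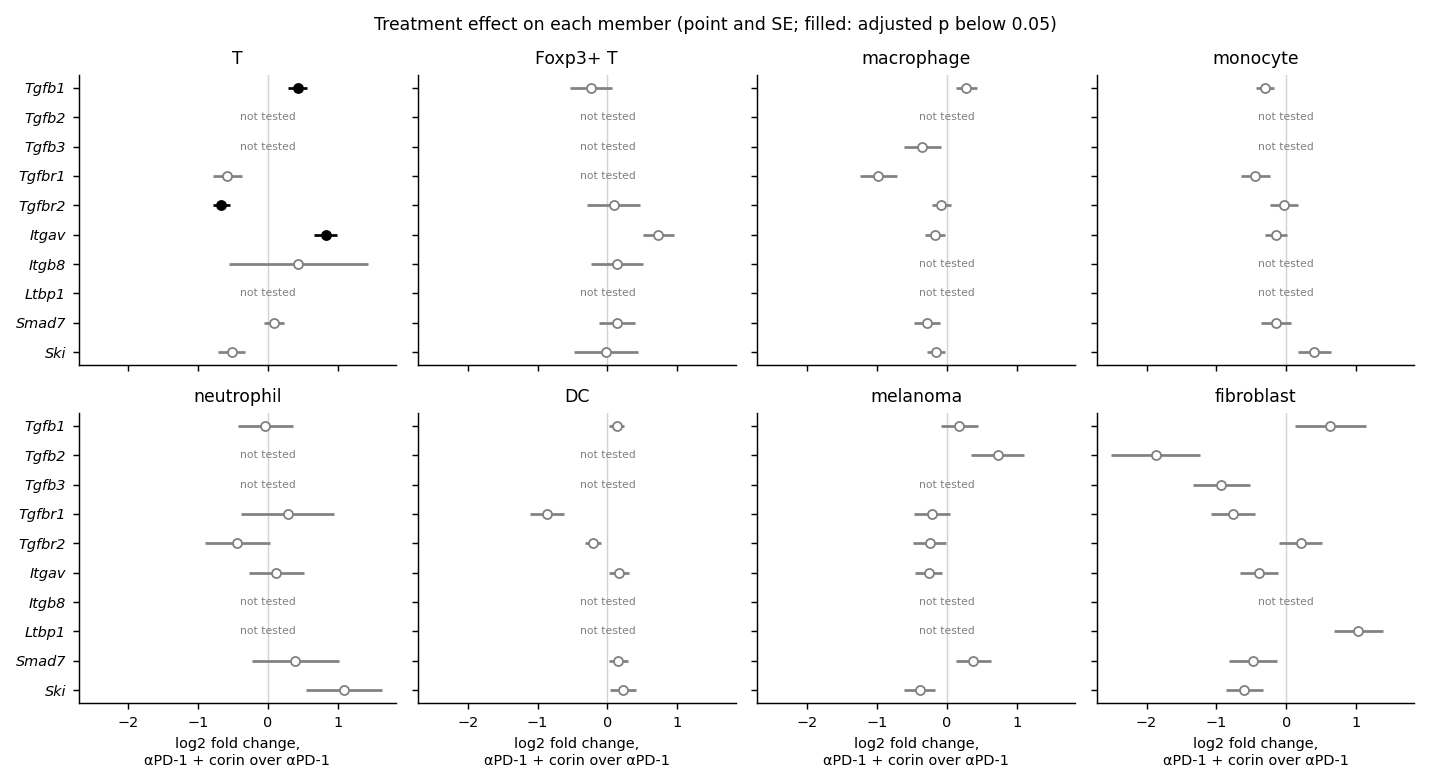
Log2 fold change of each member, αPD-1 + corin over αPD-1, in 8 lineages, with bars of 1 SE; filled points passed at an adjusted p below 0.05. Only Itgav, Tgfb1 and Tgfbr2 in T cells are filled.

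The make-up of the T cells differed between the groups. T cells of Tn-like clusters, named from genes of naive cells such as Lef1 and Tcf7, numbered 461, 386 and 282 with αPD-1 and 7, 12 and 19 with αPD-1 + corin. Of these 1167 cells, 812 were in a cluster led by Dapl1, where 90.8% held at least 2 UMIs of T cell markers. The other 355 were in one led by Auts2, where 24.2% did. At resolutions 0.4 and 1.2, with no upper gene limit or with no doublet removal, a cluster led by Dapl1 was again named Tn-like. The cluster most like the Auts2-led one was not named Tn-like in those settings. The Tn-like clusters were not tested apart. In the αPD-1 samples these cells had 299 ± 12.4 CPM of Tgfbr2, against 147 ± 23.8 CPM in the remaining T cells, and 47.0 ± 3.26 CPM of Itgav, against 265 ± 43.6 CPM (SD, n = 3). For Tgfb1 the values were 106 ± 8.06 and 139 ± 24.2 CPM.

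Without the Tn-like clusters no member passed in T cells, and 33 of 9048 genes (0.365%) did. Tgfbr2 then measured 131, 136 and 175 CPM with αPD-1 against 127, 119 and 118 CPM with αPD-1 + corin, with a log2 fold change of -0.21 (SE 0.13, adjusted p = 0.639). Itgav measured 258, 312 and 225 CPM against 282, 420 and 279 CPM, now with overlapping groups (log2 fold change 0.38, SE 0.16, adjusted p = 0.395). Tgfb1 had a log2 fold change of 0.32 (SE 0.14, adjusted p = 0.374). The directions were the same as with the Tn-like clusters, and for Tgfbr2 and Itgav the change was smaller. Smad7 differed more in these cells than over all T cells. It measured 159, 150 and 139 CPM against 245, 209 and 155 CPM, with a log2 fold change of 0.45 (SE 0.14, adjusted p = 0.187) where it was 0.08 over all T cells. The unadjusted edgeR p was 0.00502 for Smad7, 0.0343 for Itgav and 0.0295 for Tgfb1.

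**Figure D3:**
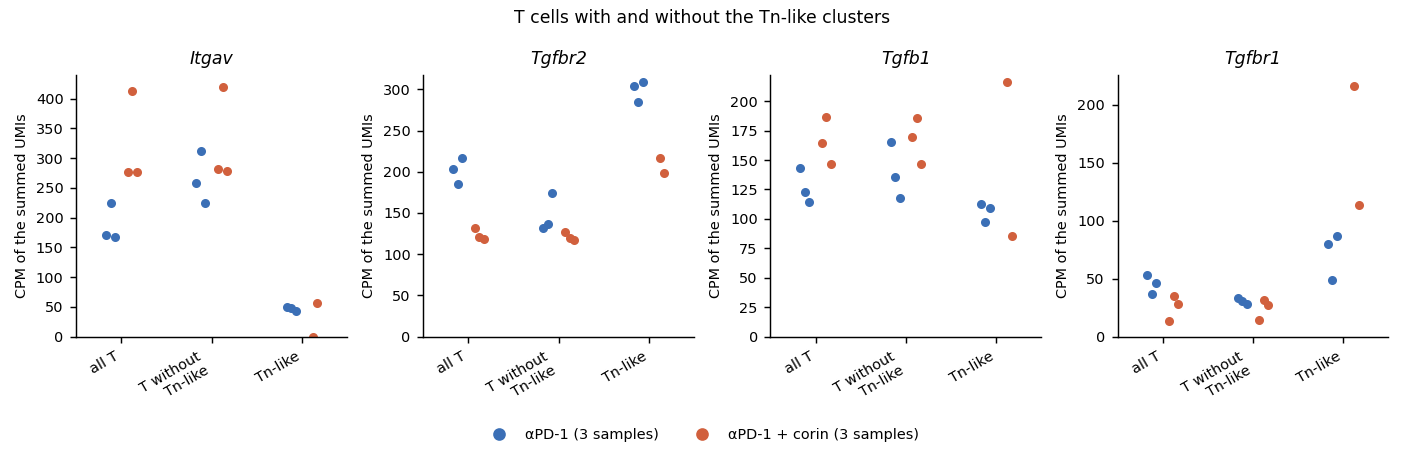
CPM of Itgav, Tgfbr2, Tgfb1 and Tgfbr1 in T cells by sample, for all T cells, the T cells without the Tn-like clusters and the Tn-like clusters, colored by treatment; only sums of at least 10 cells are drawn. In the αPD-1 samples the Tn-like cells sit at 299 CPM for Tgfbr2 and 47.0 CPM for Itgav on average, and outside them the group means of these 4 genes lie closer together than over all T cells.

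Foxp3+ T cells differed from the other T cells of the same samples in 2 of the 6 members tested, where 13% of the 4637 genes tested passed (edgeR with the sample as a block). Itgav was higher, with a log2 difference of 1.05 (SE 0.16, adjusted p = 2.32e-06), and Tgfbr2 was lower, with a log2 difference of -1.16 (SE 0.20, adjusted p = 3.84e-05). Both passed in all 9 alternatives run. Itgav measured 327, 395 and 401 CPM in Foxp3+ T cells with αPD-1, where the other T cells had 152, 214 and 147 CPM. With αPD-1 + corin the values were 800, 775 and 319 CPM against 213, 326 and 276 CPM. The Foxp3+ T cells were above their own sample's other T cells in all 6 samples, least so in αPD-1 + corin replicate 3.

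Tgfbr2 measured 74.9, 53.4 and 119 CPM in Foxp3+ T cells with αPD-1, against 219, 194 and 226 CPM in the other T cells. With αPD-1 + corin it measured 49.98, 93.0 and 85.0 CPM against 142, 127 and 119 CPM, the first value from 2 UMIs. The Foxp3+ T cells were below the other T cells in all 6 samples. Ski (log2 difference -0.52, adjusted p = 0.152), Tgfbr1 (0.33, adjusted p = 0.57), Smad7 (0.01, adjusted p = 0.98) and Tgfb1 (-0.01, adjusted p = 0.99) did not pass.

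Itgb8 did not pass the filter on low counts of that test. In the alternatives that kept it, the log2 difference was 2.93 with no filter and 3.03 when at least 2 Foxp3 UMIs were required. It was 2.94 without αPD-1 + corin replicate 1 and 2.98 without replicate 3 of that group. Where the filter let Itgb8 in, it did so through the Foxp3+ T cell sums, in which the gene is high. These differences are therefore descriptions, and no p-value is given for them.

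Between treatments no member passed within the Foxp3+ T cells. Itgav had a log2 fold change of 0.73 (SE 0.22, adjusted p = 0.0668), and of 1.02 (SE 0.23, adjusted p = 0.00146) without αPD-1 + corin replicate 3, whose value of 319 CPM was the lowest of all 6. Itgb8 had a log2 fold change of 0.14 (SE 0.38, adjusted p = 0.966).

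A Foxp3 UMI marks regulatory T cells imperfectly. It was found in 208 of 3773 T cells: in 141 of 489 cells of the Treg-like cluster (28.8%, exact 95% interval 24.9 to 33.1%), 55 of 2117 other T cells (2.60%) and 12 of 1167 Tn-like cells (1.03%). Neutrophils, which should lack the gene, had it in 3.39% of cells at a median depth of 2717 UMIs, and DC in 1.99% at 4591 UMIs, while the Treg-like cells had a median of 2106 UMIs and the other T cells 3318. Macrophages had it in 0.326% of cells at 3442 UMIs and fibroblasts in 0.506% at 7423 UMIs. The share in the other T cells (exact 95% interval 1.96 to 3.37%) was thus close to that of neutrophils and DC and above that of macrophages and fibroblasts. Neutrophils and DC also held T cell markers, at 116 to 1166 and 142 to 487 CPM, against 36.5 to 78.3 CPM in macrophages, and the part of these in the Foxp3 shares was not tested. The split also favors deeper cells. In αPD-1 + corin replicate 1 the 16 Foxp3+ T cells held 2499 CPM of neutrophil markers.

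The whole Treg-like cluster gave a second view of the same genes. Itgb8 there measured 68.2, 42.7 and 59.2 CPM with αPD-1 and 69.8, 89.4 and 27.3 CPM with αPD-1 + corin. Itgav measured 345, 363 and 232 CPM against 535, 677 and 359 CPM, and Tgfbr2 101, 103 and 123 CPM against 116, 134 and 168 CPM. The Treg-like values are descriptions, since the cluster was made from the same cells.

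**Figure D4:**
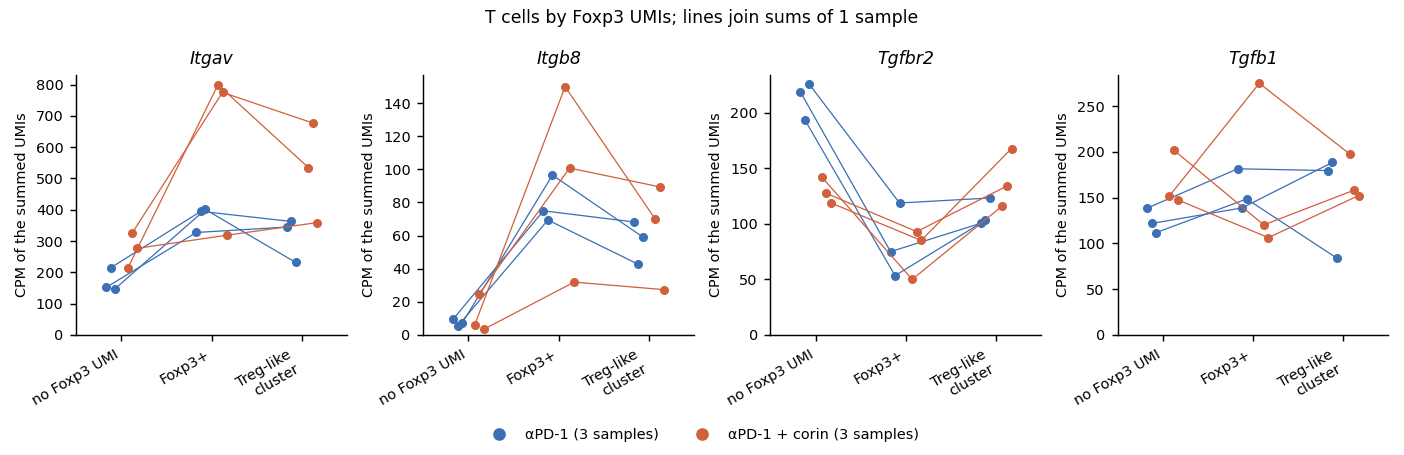
CPM of Itgav, Itgb8, Tgfbr2 and Tgfb1 in T cells without and with a Foxp3 UMI and in the Treg-like cluster, by sample and treatment; only sums of at least 10 cells are drawn. Itgav and Itgb8 are higher and Tgfbr2 is lower with a Foxp3 UMI in all 6 samples.

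In macrophages, Tgfbr1 had the largest difference of any member. It measured 94.2, 132 and 92.7 CPM with αPD-1 and 30.1, 50.03 and 65.8 CPM with αPD-1 + corin, so the groups did not overlap. The log2 fold change was -0.98 (SE 0.27, adjusted p = 0.176). DESeq2 called it (adjusted p = 0.0229), and it passed without αPD-1 + corin replicate 3 (log2 fold change -1.28, adjusted p = 0.0109).

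The macrophage clusters were not shared evenly between the groups. A cluster led by Ppbp and Ccl24 (cluster 6) took 0.137 to 0.556% of kept cells with αPD-1 and 16.0, 8.63 and 0.423% with αPD-1 + corin. A cluster led by Lyve1 and Fcna (cluster 11) took 0.580 to 1.22% and 10.8, 2.97 and 1.40%. Tgfbr1 in these clusters with αPD-1 + corin was 18.0 ± 6.93 and 16.0 ± 9.38 CPM (SD, n = 3). Without both clusters the Tgfbr1 log2 fold change in macrophages was -0.71 (SE 0.18, adjusted p = 0.161), and within single clusters it was -0.28 (SE 0.19, adjusted p = 0.806) in the largest, -0.73 (SE 0.23, adjusted p = 0.308) in cluster 3, led by Ms4a7 and C1qc, and -0.25 (SE 0.24, adjusted p = 0.849) in cluster 4, led by Mmp12 and Spp1.

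Tgfb1, Tgfbr2 and Itgav in macrophages had smaller fold changes than Tgfbr1. For Tgfbr2 and Itgav the groups did not overlap in CPM, and for Tgfb1 they did. None of these passed, and the share of all macrophage genes without overlap was not counted. Tgfb1 measured 145, 156 and 152 CPM against 186, 163 and 140 CPM (log2 fold change 0.28, adjusted p = 0.367). Tgfbr2 measured 113, 116 and 114 CPM against 108, 93.6 and 86.8 CPM (log2 fold change -0.08, adjusted p = 0.781). Itgav measured 198, 186 and 167 CPM against 124, 154 and 160 CPM, with a log2 fold change of -0.17 (SE 0.15, adjusted p = 0.551).

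The treatment effect on Itgav differed between macrophages and T cells. The difference, macrophages minus T cells, was -1.02 on the log2 scale (SE 0.21, adjusted p = 0.00881, edgeR's interaction term with the sample as a block). It was the only member of 8 that passed, where 2.43% of 12056 genes did. It did not pass without αPD-1 replicate 1 (-0.84, adjusted p = 0.115), αPD-1 replicate 3 (-0.93, adjusted p = 0.0613) or αPD-1 + corin replicate 2 (-0.89, adjusted p = 0.0587). The T cell side of this difference includes the Tn-like cells, and the part they have in it was not tested. Between macrophages and monocytes no member passed by edgeR, where 0.127% of 10200 genes did. An unadjusted p below 0.05 was found for 3 of 7 members and for 954 of those 10200 genes.

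Monocytes had the most Tgfb1, at 300, 308 and 295 CPM with αPD-1 and 236, 275 and 218 CPM with αPD-1 + corin. The αPD-1 samples lay close together and above all αPD-1 + corin samples, with a log2 fold change of -0.31 (SE 0.13, adjusted p = 0.248). The difference in Tgfb1 response between macrophages and monocytes was 0.58 (adjusted p = 0.309), and passed without αPD-1 + corin replicate 3 (0.65, adjusted p = 0.0276). In DC, Tgfbr1 measured 41.5, 89.2 and 66.0 CPM against 31.8, 36.6 and 32.6 CPM, with a log2 fold change of -0.86 (SE 0.24, adjusted p = 0.157). Tgfbr2 in DC measured 73.5, 71.2 and 72.1 CPM against 56.4, 58.8 and 60.9 CPM (log2 fold change -0.21, adjusted p = 0.449).

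Neutrophils with αPD-1 were too few for close comparison, at 33803 to 59385 UMIs per sample, and 3 UMIs there correspond to 50.5 to 88.7 CPM. Tgfb1 in neutrophils measured 118, 88.7 and 233 CPM against 172, 121 and 111 CPM. Ski had the largest fold change, 1.08 on the log2 scale (SE 0.54, adjusted p = 0.488).

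Fibroblasts had 9 testable members, and none passed. Tgfb2 had a log2 fold change of -1.87 (SE 0.63, adjusted p = 0.155) and passed by DESeq2 (-1.95, adjusted p = 0.00438). Ltbp1 had a log2 fold change of 1.03 (SE 0.35, adjusted p = 0.103) and Tgfb3 one of -0.93 (SE 0.41, adjusted p = 0.192). Tgfbr1 measured 77.0, 110 and 77.0 CPM against 48.1, 33.1 and 72.5 CPM (log2 fold change -0.76, SE 0.31, adjusted p = 0.164). It passed without αPD-1 + corin replicate 3 (-1.06, adjusted p = 0.0313). The αPD-1 sums came from 38 to 63 cells per sample and the αPD-1 + corin sums from 78 to 610.

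Tgfbr2 in fibroblasts measured 222, 194 and 314 CPM with αPD-1 and 367, 177 and 288 CPM with αPD-1 + corin, with overlapping groups (log2 fold change 0.20). Melanoma cells likewise had no member past the threshold, with or without the upper limit on genes per cell. With that limit their largest fold change was that of Tgfb2, 0.73 on the log2 scale (SE 0.38, adjusted p = 0.705).

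The Tgfb1 UMIs were then counted by lineage, as a share of all 18986 Tgfb1 UMIs in kept cells. Macrophages held 21.7, 28.0 and 17.4% with αPD-1 and 56.4, 34.4 and 26.1% with αPD-1 + corin (two-sided exact permutation test, p = 0.2). The groups overlapped. T cells held 12.6, 13.8 and 7.74% against 1.13, 8.29 and 24.1% (exact p = 1), with αPD-1 + corin replicates 1 and 3 at the ends of the range.

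Monocytes held 10.2, 11.9 and 13.6% of Tgfb1 UMIs against 4.11, 3.02 and 7.14% (exact p = 0.1). DC held 9.53, 9.38 and 11.9% against 18.2, 19.5 and 13.9% (exact p = 0.1). Neutrophils ranged from 0.112 to 0.481% against 1.13 to 18.2%, and fibroblasts from 0.661 to 1.48% against 1.72 to 9.99% (exact p = 0.1 each). Melanoma cells held 0.335 to 0.641% against 1.33 to 2.13% (exact p = 0.1). With 3 samples against 3 the smallest p this test can give is 0.1, so no share could pass, and 7 lineages were compared. These shares move with the number of cells of each lineage that came through the CD45 enrichment. They also depend on the upper limit on genes per cell. In αPD-1 replicate 1, melanoma cells held 791421 of 18383974 UMIs of all genes in kept cells with that limit. Without it they held 26213202 of 53227868. The small melanoma shares of Tgfb1 therefore describe only the cells kept under that limit.

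**Figure D5:**
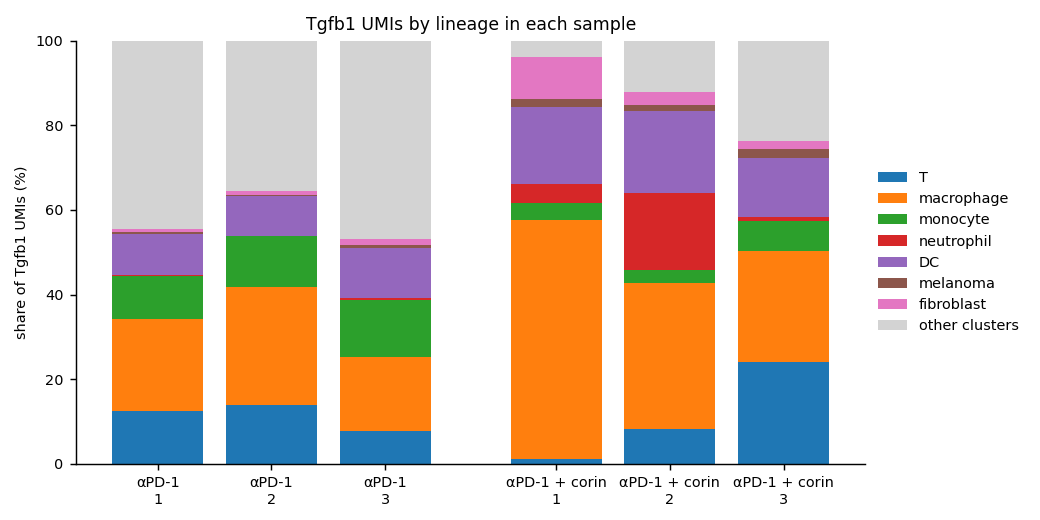
Share of Tgfb1 UMIs by lineage in each of the 6 samples, in percent of those in kept cells; the grey part holds all other clusters. Macrophages hold 17.4 to 28.0% with αPD-1 and 26.1 to 56.4% with αPD-1 + corin.

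Other genes of the pathway were taken from a list of 51, namely further latent-complex and release factors, other receptors, SMADs and their regulators, and target genes. In T cells 5 of the 34 tested rose and 11 fell, against the 18.8% of all genes given above. The median log2 fold change of the list was -0.09, against -0.00 over all genes tested. Of the 15 SMADs and regulators tested 1 rose and 7 fell, and of the 10 target genes 4 rose and 2 fell. Among the 7 latent-complex genes tested Nrros alone passed, and it fell. Tgfbr3 fell among the 2 other receptors.

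The largest rises in T cells were those of 3 target genes. Bhlhe40, a transcriptional repressor, went from 178 ± 20.7 to 340 ± 55.0 CPM (SD, n = 3; log2 fold change 1.00, edgeR adjusted p = 4.37e-05). Id2, an inhibitor of helix-loop-helix factors, went from 519 ± 71.0 to 859 ± 95.5 CPM (0.78, adjusted p = 0.000771). Cdkn1a, which encodes the cell cycle inhibitor p21, went from 53.0 ± 1.86 to 85.8 ± 2.02 CPM (0.76, adjusted p = 0.000615).

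The largest falls were those of Tgfbr3, the co-receptor betaglycan (37.8 ± 11.8 to 2.82 ± 4.26 CPM, log2 fold change -2.72, adjusted p = 0.0138), Itgae, the integrin αE of tissue-resident T cells (28.3 ± 5.57 to 6.97 ± 1.57 CPM, -2.16, adjusted p = 1.86e-05), and Nedd4l, a ubiquitin ligase that acts on SMADs (74.0 ± 10.9 to 18.2 ± 5.71 CPM, -2.13, adjusted p = 3.63e-07; edgeR, n = 3 each). Tn-like cells of the αPD-1 samples had 81.7 CPM of Tgfbr3 where the remaining T cells had 13.6, 160 CPM of Nedd4l against 25.6, and 41.2 CPM of Itgae against 21.4. The order was the opposite for Bhlhe40, with 35.7 against 255 CPM. Without the Tn-like clusters 0 of 31 list genes rose and 2 fell, Id3 and Itgae.

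In the other lineages few genes of the list passed. In Foxp3+ T cells 1 of 14 did: Id3, an inhibitor of helix-loop-helix factors, fell from 98.2 ± 4.99 to 15.7 ± 8.02 CPM (SD, n = 3; log2 fold change -2.88, edgeR adjusted p = 0.000344). Of the Foxp3+ T cells, 12 of 118 with αPD-1 and 0 of 90 with αPD-1 + corin were Tn-like, and 35 and 20 were other T cells outside the Treg-like cluster. Id3 is among the 10 leading genes of the Dapl1-led Tn-like cluster. The part of this make-up in the fall of Id3 was not tested. Tgif1, a SMAD corepressor, rose in monocytes from 48.2 ± 11.1 to 79.5 ± 6.43 CPM (0.78, adjusted p = 0.0457) and in DC from 41.6 ± 6.93 to 77.1 ± 2.53 CPM (0.99, adjusted p = 0.0185), as the only genes of 33 and 39 tested. None passed of 41 in macrophages, 18 in neutrophils, 35 in melanoma cells and 45 in fibroblasts. An unadjusted edgeR p below 0.05 was found for 13, 2, 4 and 14 of these. Over all genes tested it was found for 1983 of 11509, 324 of 2923, 694 of 9467 and 1610 of 6895.

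Between Foxp3+ and other T cells, Id3, Id2 and Itgb1 were lower in the Foxp3+ cells among 21 list genes tested, a share near the 13% of all genes. The treatment effect on Smad3, Itgae and Nedd4l differed between macrophages and T cells among 45 tested, where 2.43% of 12056 genes did. The difference, macrophages minus T cells, was positive for each. These T cells include the Tn-like cells, and the part they have in it was not tested. Of 40 list genes tested between macrophages and monocytes none differed.

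The genes whose levels moved most like each member over the 48 sums (8 lineages in 6 samples) were sought among 9773 genes. The sums of a sample share a library, the T cell and Foxp3+ T cell sums share cells, and the fibroblast sums dominate several members, so Pearson's r is a description. Itgb8 was closest to Klrg1, Foxp3 and Ncmap (r = 0.95 each), and Foxp3 made the split. Itgav was closest to Rln3 (r = 0.86) and Hacd3 (r = 0.85), with Itgb8 next (r = 0.84). Tgfbr2 was closest to Ldlrad4 (r = 0.87), which is itself in the list of SMAD regulators. Tgfb1 was closest to Sh3bgrl3, Ly6e and S100a4 (r = 0.92 each), and Ltbp1 to C1qtnf7 (r = 0.99). Tgfbr1 had no close match, with Exoc1 highest at r = 0.63.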

How the data were processed

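RNA of single CD45+ cells from 3 αPD-1 and 3 αPD-1 + corin samples was deposited as matrices of UMI counts per gene and barcode, which the authors made with Cell Ranger 8.0.1 on GRCm39 (Seurat 5.0.11 is named in the submitters' processing notes). The deposited counts are raw, and free RNA had not been corrected for. Barcodes with 600 to 4000 genes and under 10% mitochondrial UMIs were kept, and 2002 doublets were removed by Scrublet score at 0.4% per 1000 barcodes (Scrublet's own threshold called 0). Cells were clustered on 20 principal components with Seurat 5.3.0 (resolution 0.8) after SCTransform (sctransform 0.4.2), leaving the members, the pathway list and the markers out of the variable genes. A cluster was named from at least 3 markers, and was left out where at least 50% of its cells held 2 or more UMIs each of B and T cell markers. T cell sub-clusters named for a B cell, myeloid or natural killer (NK) lineage were also left out. Of the 6046 cells sub-clustered, 727 and 572 were in those named for macrophages, where 87.4 and 82.9% held at least 2 UMIs of T cell markers. Those named for B cells held 170 and 356 and those named for NK cells 415 and 33. The 3773 T cells are the rest. UMIs were summed per sample and lineage (at least 10 cells) and tested with edgeR 4.0.16 (glmQLFit, TMM, filterByExpr), with DESeq2 1.42.0 as an alternative. The counting depth of each sum sets the precision of its values, and intervals and floors of 3 UMIs cover counting error only. Genes were placed on GRCm39 with the GENCODE annotation.

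All 10 members are described. Of the pathway list, up to 3 rises and 3 falls per lineage were named among genes that passed and reached 20 CPM in 1 of the groups. Likeness used log2(CPM + 10). The members, lists and markers were chosen with earlier results of these data known. Same-numbered samples did not deviate together (correlations -0.16 to 0.10), so the numbers were not taken as pairs. Scripts were checked on simulated data. Alternatives covered the normalization, the filter, each sample left out, doublets, gene limits, clustering and the cells counted.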

Additional observations from a re-analysis of the deposited data

Results flagged for a closer look

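The effect of corin on Itgav differed between lineages by a test of the difference itself. Itgav measured 171, 225 and 168 CPM with αPD-1 and 277, 412 and 277 CPM with αPD-1 + corin in T cells, and 198, 186 and 167 against 124, 154 and 160 CPM in macrophages. The difference of the log2 fold changes, macrophages minus T cells, was -1.02 (SE 0.21, adjusted p = 0.00881, edgeR's quasi-likelihood interaction term with Benjamini-Hochberg adjustment). It passed in 5 of 8 alternatives and kept its sign in the other 3. The Tn-like cells, which had 47.0 ± 3.26 CPM of Itgav in the αPD-1 samples (SD, n = 3), are part of the T cells in this comparison, and their part in it was not tested. Groups of 3 samples are too small for a check of single outlying samples.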

How the results depend on the processing

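No result that passed changed its direction in any alternative. In T cells 3 members passed, and 5 did with no filter on low counts, 1 with a lower limit of 300 genes per cell and 0 without the Tn-like clusters, with 2 to 4 when 1 sample was left out. Itgav in T cells passed in 16 of 18 alternatives, Tgfbr2 in 17 and Tgfb1 in 10. In macrophages, where 0 members passed, 1 did with DESeq2 and 1 with no filter (Tgfbr1 each), and 0 to 1 when 1 sample was left out. In fibroblasts 1 passed with DESeq2 (Tgfb2), 2 with no filter (Tgfb2 and Ltbp1) and 0 to 1 with 1 sample left out. In monocytes 1 passed when the cells were clustered after log-normalization (Tgfb1, log2 fold change -0.52, adjusted p = 0.046, edgeR), and in DC 1 with no filter (Tgfbr1). Over all genes, 557 of 21970 passed with no filter in macrophages, 482 of 19525 in fibroblasts and 737 of 20146 in DC. In T cells 2141 of 19338 did, and 176 of 7672 in monocytes clustered after log-normalization. When 1 sample was left out, 0 to 1 member passed in Foxp3+ T cells, 0 to 1 in the difference between macrophages and T cells, and 0 to 1 in that between macrophages and monocytes. Single macrophage clusters and macrophages without clusters 6 and 11 were added after seeing the data, and 0 members passed in each.

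With the replicate block 3 members passed in T cells, of 1594 genes in all, and 0 in each other lineage, so it changed no call of a member. Counts over all genes moved more: over the alternatives they ran from 33 (without the Tn-like clusters) to 2141 around 1871 in T cells, 4 to 44 around 33 in Foxp3+ T cells, 0 to 2579 around 8 in macrophages, 10 to 610 around 148 in monocytes, 0 to 123 around 13 in neutrophils, 1 to 894 around 72 in DC, 0 to 41 around 0 in melanoma cells, 40 to 1026 around 211 in fibroblasts, 373 to 863 around 601 between Foxp3+ and other T cells, 121 to 513 around 293 between macrophages and T cells, and 0 to 520 around 13 between macrophages and monocytes. The highest counts in macrophages, monocytes, DC and fibroblasts and in both differences came without αPD-1 + corin replicate 3. Of 844 alternative fits of members that did not pass, 825 did not pass either, and 66 of those changed sign. The causes were not tested. Depth limits the Foxp3+ T cells, at 40020 to 257999 UMIs per sample, and the neutrophils of αPD-1, where 3 UMIs correspond to 50.5 CPM or more.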
